A study of Mus musculus with 12 samples.

Results

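The epidermal growth factor (EGF) family and its ErbB receptors were followed in C57MG cells, an established mouse mammary epithelial line, through the expression of 10 genes. Members were all probes, other than control spots, that the array files name *Egfr*, *Erbb2*, *Erbb3*, *Egf*, *Areg*, *Ereg*, *Hbegf*, *Tgfa*, *Btc* or *Nrg1*. This rule gave 27 probes of the 41174 on the array, 13 for receptors and 14 for ligands. The files give 27962 distinct gene names in all. Of the 27, 15 from 7 genes are called detected, since at least 1 treatment group had the signal well above background on each of its 3 arrays. None of the 27 was saturated on any array.

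Monolayers were grown in medium with serum and insulin, moved to plain medium and treated for 24 h in 4 groups of 3 biological replicates. The control group received bovine serum albumin (BSA), the carrier of the recombinant proteins. The other groups received human R-spondin 2 (Rspo2) at 100 ng/ml, mouse Wnt3a at 100 ng/ml, or both at these doses (the combination). No group was given an EGF family ligand. RNA of each monolayer was labeled in a single color and hybridized to its own array, which makes 12 arrays in all. The data ask whether Rspo2 and Wnt3a, alone or together, altered the transcripts of this growth factor family. Arrays measure RNA levels over all cells of a monolayer, so fewer cells that express a gene and less RNA per cell cannot be told apart.

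EGF family ligands are made as membrane-anchored precursors and are released by metalloproteases at the cell surface. EGF, amphiregulin (*Areg*) and transforming growth factor alpha (*Tgfa*) bind EGFR, whereas betacellulin (*Btc*), epiregulin (*Ereg*) and heparin-binding EGF-like growth factor (*Hbegf*) bind EGFR and ERBB4. Neuregulin 1 (*Nrg1*) binds ERBB3 and ERBB4. ERBB2 has no known ligand of its own and acts as the preferred partner of the other receptors, and ERBB3 has little kinase activity and signals through such partners. In the mammary gland amphiregulin acts through stromal EGFR during duct growth in puberty.

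The promoter sequences below are those of *Egfr*, *Erbb2* and *Areg*, genes with a probe that passed the test in some comparison and 1 promoter on record. *Egf* also passed, near background, but has 2 promoters on record and is described without its letters. The promoter of *Hbegf*, whose probe passed as well, was left out of this search and is not reported here. *Nrg1*, with probes that passed, had none on record. Each is the stretch of 250 bases just before the annotated start of the gene, taken from RefSeq on mouse build GRCm38.p6 and written 5' to 3' in the direction of the gene. Capitals mark matches on either strand to the GC box GGGCGG, a site for Sp family factors, or to the cyclic AMP response element TGACGTCA. The same stretches were searched for the AP-1 site TGACTCA and for the TCF core CTTTGA.
*Egfr*, chr11:16751953-16752202, plus strand: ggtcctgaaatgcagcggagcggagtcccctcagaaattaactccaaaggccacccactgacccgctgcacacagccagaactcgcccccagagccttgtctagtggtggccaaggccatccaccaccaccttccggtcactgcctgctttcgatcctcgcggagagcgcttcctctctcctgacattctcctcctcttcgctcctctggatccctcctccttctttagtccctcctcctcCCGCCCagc
*Erbb2*, chr11:98412234-98412483, plus strand: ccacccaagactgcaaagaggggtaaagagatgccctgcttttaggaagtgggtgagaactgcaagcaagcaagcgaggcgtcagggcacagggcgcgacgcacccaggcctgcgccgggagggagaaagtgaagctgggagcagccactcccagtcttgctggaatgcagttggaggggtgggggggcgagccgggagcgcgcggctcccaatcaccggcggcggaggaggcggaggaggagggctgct
*Areg*, chr5:91139349-91139598, plus strand: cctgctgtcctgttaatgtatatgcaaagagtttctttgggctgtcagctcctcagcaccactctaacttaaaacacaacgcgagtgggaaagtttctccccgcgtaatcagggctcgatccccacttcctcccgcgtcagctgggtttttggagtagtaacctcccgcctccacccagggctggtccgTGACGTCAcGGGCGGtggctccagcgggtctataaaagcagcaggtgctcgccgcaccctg

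The *Egfr* stretch held 1 GC box, which began 9 bases before the start of the gene. The *Areg* stretch held the cyclic AMP response element 61 bases before the start and a GC box 52 bases before it. No match lay in the *Erbb2* stretch, and none to the AP-1 or TCF letters lay in these 3 stretches. The *Tgfa* promoter, also on record, held GC boxes that began 126 and 15 bases before the start, and no match was found for *Egf* or *Btc*. Among 32851 mouse promoter stretches of this length, 32.7% held the GC box, 1.55% the cyclic AMP response element, 4.46% the AP-1 site and 13.8% the TCF core. G and C made up 60.8% of the bases before *Egfr*, 66% before *Erbb2* and 57.2% before *Areg*. These matches describe letters in the window and say nothing of binding.

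*Axin2*, a target of the Wnt/beta-catenin pathway, was well above background on the 3 combination arrays and on none of the other 9. Its relative signal there was 0.227, 0.301 and 0.345. Relative signal is the intensity of a probe divided by the 75th percentile of its array, and it is not compared between probes. That percentile lay between 773.9 and 1146 intensity units, and 51.28% to 64.15% of the probes on an array were well above background, the most on BSA replicate 1. Of the markers sought for mammary epithelium, *Krt8* and *Krt14* were above background on all 12 arrays, *Krt5* on 10, *Krt7* on 9, *Krt18* on 3 and *Krt19* on 2, whereas *Cdh1*, which encodes E-cadherin, was above it on none. The mesenchymal markers *Vim*, *Cdh2*, *Col1a1*, *Pdgfrb* and *Fn1* were above background on all 12. Of the leukocyte, endothelial and adipocyte markers *Cd68* and *Cdh5* were above background on all arrays, *Cd3e* on 11 and *Ptprc*, *Pecam1* and *Adipoq* on 1, 1 and 4. *Epcam* and *Plin1* were not found by their symbols. The 12 arrays were spread over 3 slides, and treatment was not balanced across them. All BSA arrays shared slide 1 with 1 Rspo2 array (replicate 1). The other 2 Rspo2 arrays were on slide 2 beside Wnt3a replicates 1 and 2. The third Wnt3a array was on slide 3 beside all combination arrays. No slide therefore held BSA together with Wnt3a or the combination, and for these comparisons slide and treatment can be separated only through arrays that link neighboring slides.

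Expression of the family was uneven. *Areg*, *Hbegf*, *Nrg1* and *Erbb2* had all their probes above background on all 12 arrays, and *Egfr* and *Btc* some of theirs. *Egf* was close to the limit, above background on 10 of 12 arrays. *Erbb3*, *Ereg* and *Tgfa* were not detected by any of their 9 probes. The plot of intensity and detection shows this for each probe.

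**Figure D1:**
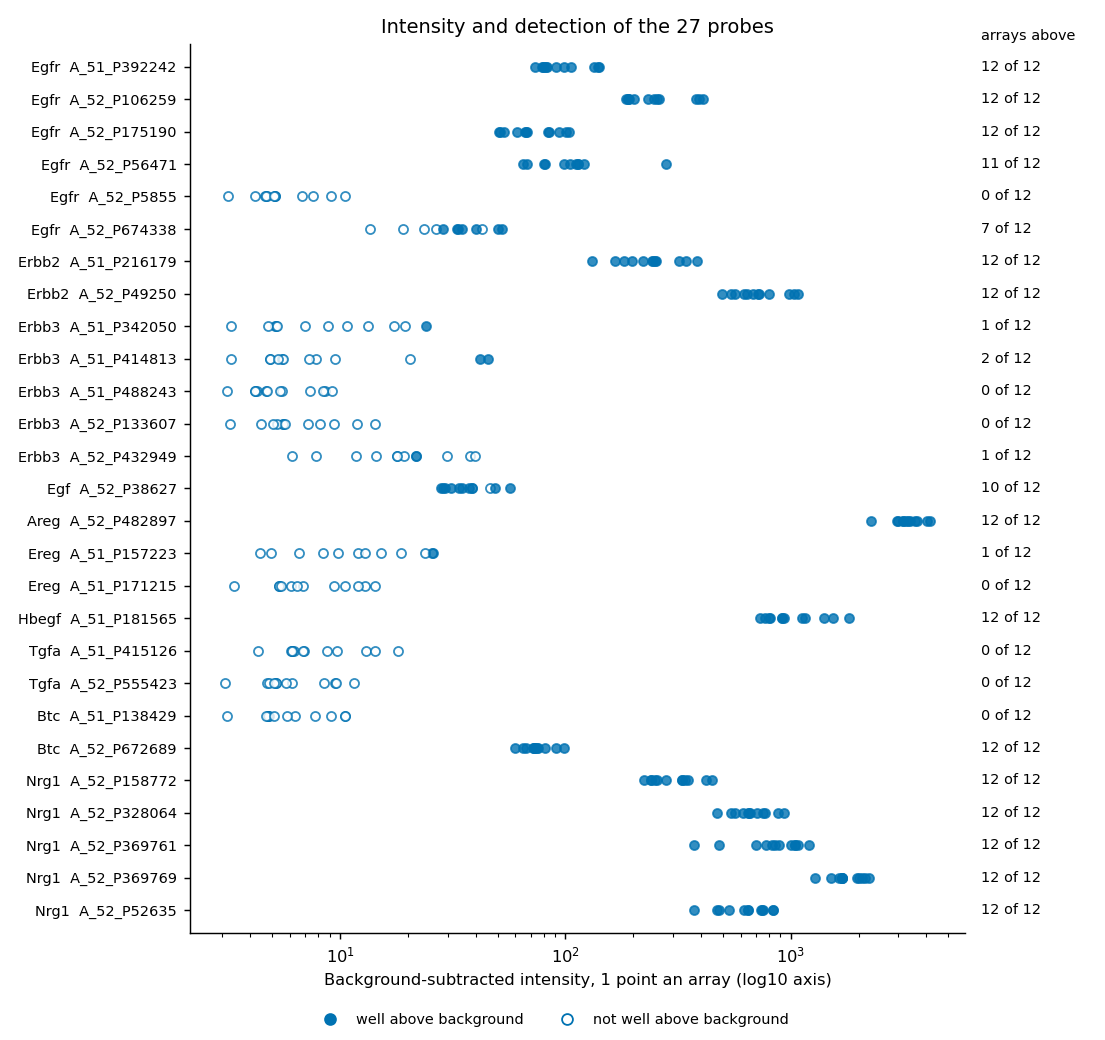
Background-subtracted intensity of the 27 probes on the 12 arrays (log10 axis, 1 point an array). Filled points were well above background, and the count at the right gives the number of such arrays. All 5 *Nrg1* probes were filled on 12 of 12 arrays, and both *Tgfa* probes on none.

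Across the 15 detected probes, treatment left most signals within 2-fold of BSA. A probe is said to rise or fall when its adjusted p was under 0.05 in a linear model fitted with limma over 22750 detected probes of the array, with Benjamini-Hochberg adjustment over all of them. With Rspo2, 1 member probe rose and 2 fell, where 10.9% of all probes rose, 5.93% fell and 16.8% passed in either direction. With Wnt3a, 2 rose and 4 fell, where 18.3% of all probes rose, 13.2% fell and 31.5% passed. With the combination, again 2 rose and 4 fell, where 21.9% of all probes rose, 17.3% fell and 39.2% passed. Of the 15 member probes, 20% passed with Rspo2 and 40% with Wnt3a and with the combination, near the shares of the whole array. The median log2 change of the members against BSA was -0.12, -0.34 and -0.20 in these comparisons, beside 0.01, 0.00 and 0.04 over all probes. A change of 2-fold or more was reached by 1 member probe, that of *Hbegf* in the combination, where 5.08% of all probes reached it. No member probe reached it with Rspo2 or with Wnt3a alone, where 0.721% and 2.52% of all probes did.

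Between the combination and Wnt3a alone, none of the 15 probes passed in limma, beside 4.27% of all probes. An unadjusted p under 0.05 was reached by 4 of them, beside 4196 of all 22750 probes. The methods' t-test, before adjustment, called 1, that of *Btc*, beside 2456 of all probes. The interaction is the change in the combination less the sum of the changes with each protein, on the log2 scale. It passed for none of the 15, beside 8.9% of all probes, and had an unadjusted p under 0.05 in 3, beside 6658 of all 22750. The methods' t-test called 2 before adjustment, those of *Erbb2* (A_51_P216179) and *Areg*, beside 5292 of all probes. After adjustment it called 0, beside 131 of all probes.

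*Egfr*, the receptor for most ligands of the family, was lower in all treated groups by both probes that the array carries as 10 spots each. The probe A_52_P106259, whose accession is that of *Egfr* transcript variant 1, had relative signals of 0.428, 0.341 and 0.352 with BSA and 0.25, 0.281 and 0.24 with Rspo2. It read 0.259, 0.241 and 0.237 with Wnt3a and 0.202, 0.209 and 0.246 with the combination. Every treated array lay below the lowest BSA array, while the treated groups overlapped one another.

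The log2 change of this probe was -0.54 ± 0.11 (SE, n = 3 arrays a group) with Rspo2, with an adjusted p of 0.0182. It was -0.60 ± 0.11 with Wnt3a, with an adjusted p of 0.00334. With the combination it was -0.77 ± 0.11, to 58.8% of the BSA level, with an adjusted p of 0.000485. From Wnt3a to the combination the change was -0.17, with a 95% interval of -0.41 to 0.08, and the interaction was 0.37 with an adjusted p of 0.148. Rspo2 added to Wnt3a thus gave no further fall that the test could tell from the spread between arrays.

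The probe A_51_P392242, whose accession is that of *Egfr* transcript variant 2, gave the same order of groups. It read 0.147, 0.123 and 0.124 with BSA, 0.103, 0.104 and 0.104 with Rspo2, 0.091, 0.0949 and 0.099 with Wnt3a, and 0.0836, 0.0841 and 0.0933 with the combination. No BSA array overlapped a treated one, and Wnt3a overlapped the combination. The log2 change was -0.34 ± 0.09 (SE, n = 3) with Rspo2, -0.47 ± 0.09 with Wnt3a and -0.59 ± 0.09 with the combination. The adjusted p values were 0.0285, 0.00322 and 0.000469. Replicate spots of this probe on 1 array differed by a median of 7.33% (coefficient of variation), and those of A_52_P106259 by 4.84%.

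The size of the fall in the combination was kept with slide as a term, but the call was not, and the fall with Rspo2 rested on single arrays. On slide 1 alone the Rspo2 array lay below the mean of the 3 BSA arrays by -0.57 (A_52_P106259) and -0.34 (A_51_P392242) on the log2 scale. Wnt3a differed from Rspo2 by -0.05 and -0.16 on slide 2, and the combination from Wnt3a by -0.12 and -0.19 on slide 3. With slide as a term the changes in the combination were -0.75 and -0.69, and neither passed, with adjusted p of 0.243 and 0.149. Over all 25 alternatives the adjusted p of these falls in the combination ran from 0.00028 to 0.243 and from 0.000154 to 0.525, and each was kept under 23. BSA replicate 1 had the highest reading of both probes, and without it the changes with Rspo2 were -0.44 and -0.25 with adjusted p of 0.0598 and 0.0858, while both probes still fell with Wnt3a and with the combination. The fall with Rspo2 was also lost without Rspo2 replicate 3 in A_52_P106259, and without BSA replicate 3 or any 1 Rspo2 array in A_51_P392242. It was kept under 18 of the 25 alternatives in the former and 12 in the latter. Over the alternatives the adjusted p of the falls with Rspo2 ran from 0.0109 to 0.843 and from 0.0138 to 0.82. The falls with Wnt3a were kept under 22 (A_52_P106259) and 21 (A_51_P392242), with adjusted p up to 0.418 and 0.736. Both were lost with slide as a term, with normexp and with the methods' t-test after adjustment. That of A_51_P392242 was also lost with quantile normalization. With background corrected by normexp in place of the scanner software, A_52_P106259 changed by -0.69 in the combination with an adjusted p of 0.209, and A_51_P392242 with Rspo2 turned to 0.26.

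Of the other 4 *Egfr* probes, each a single spot, 2 were detected and neither passed in any comparison. A_52_P175190 read 0.0986, 0.0875 and 0.0784 with BSA and 0.0742, 0.0662 and 0.0631 with Wnt3a. It read 0.101, 0.0696 and 0.0856 with Rspo2 and 0.0885, 0.0559 and 0.0624 with the combination. The Wnt3a arrays lay below BSA, the other groups overlapped it, and the log2 changes were -0.06, -0.37 and -0.38 with Rspo2, Wnt3a and the combination.

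A_52_P56471 read 0.11, 0.106 and 0.26 with BSA, and 0.112 and 0.129 on the Rspo2 arrays that gave a value. It read 0.109, 0.105 and 0.0806 with Wnt3a and 0.0715, 0.0837 and 0.106 with the combination. BSA replicate 3 stood far above the other arrays, and Rspo2 replicate 3 was left out because its spot was marked as an outlier. The log2 change in the combination was -0.75 ± 0.31, with an adjusted p of 0.0825. The change was below 0 for all 4 detected *Egfr* probes in each comparison with BSA. Within slides the signs of A_52_P175190 and A_52_P56471 were mixed. On slide 1 the Rspo2 array differed from the mean of BSA by 0.20 and -0.37, in this order. Wnt3a differed from Rspo2 by -0.14 and -0.27 on slide 2. On slide 3 the combination read above the Wnt3a array by 0.098 and 0.089. The remaining A_52_P674338 was above background on 7 arrays, in no group on all 3, and A_52_P5855 on none.

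*Erbb2* was measured by 2 probes, which both read lower with each treatment than with BSA, and 1 of these 6 differences passed. A_51_P216179 read 0.264, 0.3 and 0.355 with BSA, 0.237, 0.225 and 0.23 with Rspo2, 0.271, 0.17 and 0.206 with Wnt3a, and 0.235, 0.261 and 0.303 with the combination. The Rspo2 arrays lay below all BSA arrays, whereas the Wnt3a and combination arrays overlapped them. This probe fell with Wnt3a by 0.52 ± 0.17 (SE, n = 3) on the log2 scale, with an adjusted p of 0.0349. With Rspo2 the change was -0.40 (adjusted p = 0.115) and with the combination -0.20 (adjusted p = 0.371). The fall with Wnt3a rested on Wnt3a replicate 2, without which it was -0.36 (adjusted p = 0.13), and it was also lost without each of BSA replicates 2 and 3 and Wnt3a replicate 3, with quantile normalization (-0.37) and with slide as a term (-0.45, adjusted p = 0.597). It was kept under 11 of 25 alternatives, with adjusted p from 0.00898 to 0.597.

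The second *Erbb2* probe, A_52_P49250, is printed as 10 spots, whose readings on 1 array differed by a median of 4.31%. It read 0.761, 0.898 and 0.998 with BSA, 0.668, 0.702 and 0.713 with Rspo2, 0.893, 0.7 and 0.616 with Wnt3a, and 0.679, 0.75 and 0.926 with the combination. The log2 changes were -0.34, -0.28 and -0.18, with adjusted p of 0.143, 0.199 and 0.399. The interaction of this probe was 0.44 (adjusted p = 0.207) and that of A_51_P216179 was 0.72 (adjusted p = 0.0766), so that in both the combination read closer to BSA than the sum of the single treatments.

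*Erbb3*, the neuregulin receptor, was not detected by any of its 5 probes. Only 4 of their 60 readings were well above background, and all 60 lay between 3.16 and 45.3 intensity units. Of the 4, BSA replicate 1 gave 2, and Rspo2 replicate 3 and combination replicate 1 gave 1 each. No fold is given for these probes.

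**Figure D2:**
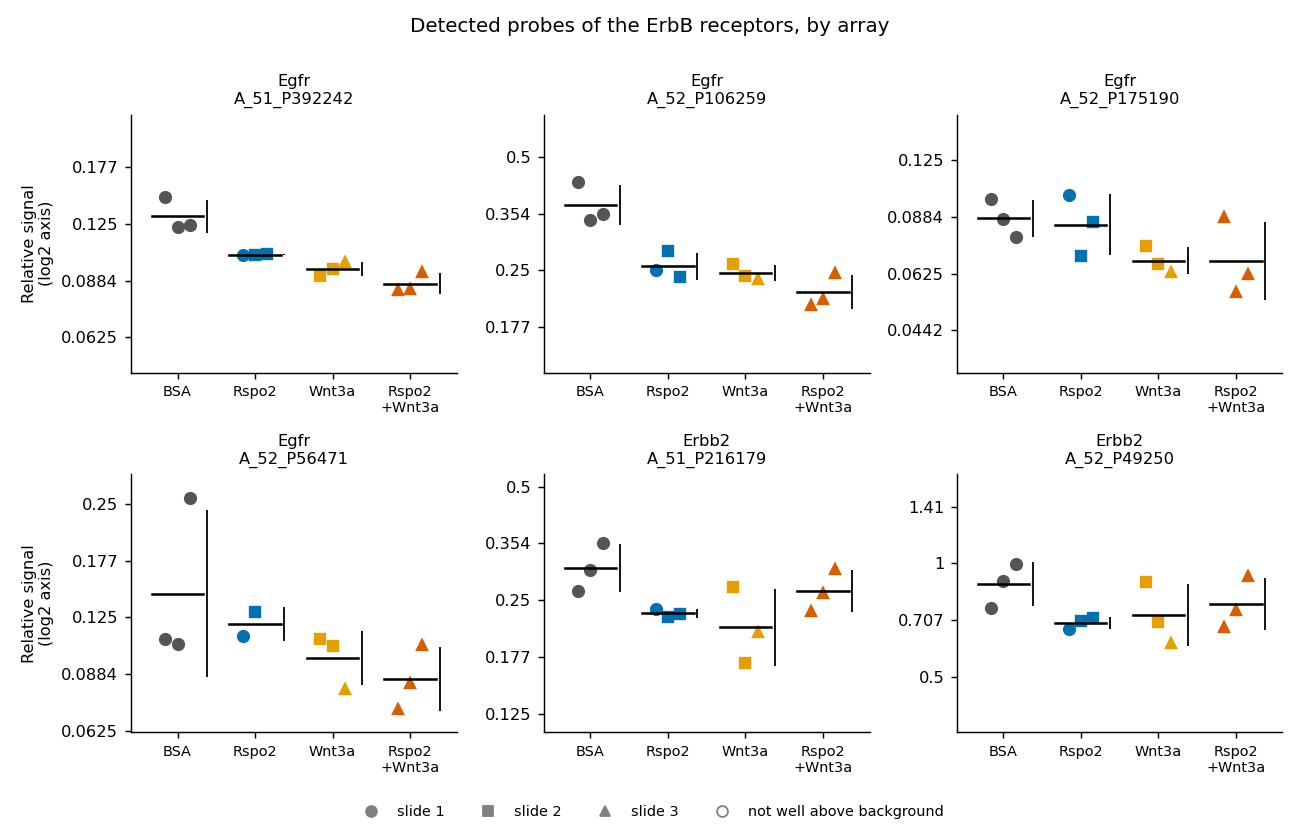
Relative signal of the 6 detected receptor probes (log2 axis) on each array. Symbols give the slide, horizontal bars the group mean and vertical bars 1 SD of the log2 values. In A_52_P106259 and A_51_P392242 all 9 treated arrays sit below the 3 BSA arrays.

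*Hbegf*, the heparin-binding ligand of EGFR and ERBB4, rose in each treated group. Its probe A_51_P181565 read 0.77, 0.703 and 0.738 with BSA, 0.91, 1.05 and 0.967 with Rspo2, 1.28, 1.45 and 1.13 with Wnt3a, and 1.49, 1.61 and 1.72 with the combination. The groups did not overlap, and stood in the order BSA, Rspo2, Wnt3a and combination. The rise was 0.40 ± 0.10 on the log2 scale (SE, n = 3), or 1.32-fold, with Rspo2, with an adjusted p of 0.0285. It was 0.80 ± 0.10, or 1.74-fold, with Wnt3a, with an adjusted p of 0.000655. In the combination it was 1.12 ± 0.10, or 2.18-fold, with an adjusted p of 2.1e-05.

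The combination read above Wnt3a alone by 0.32 on the log2 scale, with a 95% interval of 0.10 to 0.55 and an adjusted p of 0.118. The interaction was -0.08, with a 95% interval of -0.40 to 0.24, which includes 0. Within slides the differences pointed upwards each time. They were 0.30 for Rspo2 over BSA on slide 1, 0.44 for Wnt3a over Rspo2 on slide 2 and 0.50 for the combination over Wnt3a on slide 3. The first rests on 1 Rspo2 array. The last rests on Wnt3a replicate 3, the lowest of the Wnt3a arrays. The rise in the combination passed under all 25 alternatives of processing or of arrays left out, with log2 changes from 1.01 to 1.25 and adjusted p from 9.7e-06 to 0.0179. The rise with Rspo2 was kept under 14 of the 25, and was lost without any 1 of the 3 BSA arrays. The rise with Wnt3a was kept under 23 and lost with slide as a term (adjusted p = 0.0875, the highest of the 25, whose lowest was 0.000406) and with the methods' t-test after adjustment.

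*Areg*, which encodes amphiregulin, read higher in all treated groups and passed with Wnt3a. Its probe A_52_P482897 read 2.38, 3.12 and 2.76 with BSA, 3.57, 3.59 and 3.99 with Rspo2, 3.61, 3.82 and 4.99 with Wnt3a, and 4.4, 3.44 and 3.19 with the combination. No treated array overlapped BSA, and the treated groups overlapped one another. The rise with Wnt3a was 0.58 ± 0.16 on the log2 scale (SE, n = 3), or 1.50-fold, with an adjusted p of 0.0166. The differences were 0.44 with Rspo2 (adjusted p = 0.0723) and 0.41 with the combination (adjusted p = 0.056). The combination was not above Wnt3a (-0.17, adjusted p = 0.612), and the interaction was -0.61 with a 95% interval of -1.09 to -0.13 and an adjusted p of 0.0988.

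*Areg* depended on slide and on single arrays. With slide as a term the change with Wnt3a was 0.36 (adjusted p = 0.582) and that in the combination -0.10. On slide 3 the combination lay below the Wnt3a array by -0.45, and that array, Wnt3a replicate 3, was the highest of all. Without it the change with Wnt3a was 0.44 (adjusted p = 0.051), and without BSA replicate 1 it was 0.48 (adjusted p = 0.0628). The rise was kept under 19 of 25 alternatives, with adjusted p from 0.0111 to 0.582.

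*Egf* itself was read by 1 probe of 10 spots, A_52_P38627, which was near background. It read 0.0597, 0.0405 and 0.0449 with BSA, 0.0377, 0.0394 and 0.0362 with Rspo2, 0.0376, 0.0376 and 0.0349 with Wnt3a, and 0.0409, 0.0324 and 0.0354 with the combination. BSA replicate 2 and Rspo2 replicate 1 were not well above background. The change in the combination was -0.40 ± 0.14 on the log2 scale (SE, n = 3), with an adjusted p of 0.0364, although 1 combination array overlapped BSA. Without BSA replicate 1, the highest array, it was -0.24 (adjusted p = 0.115), and over 24 alternatives the adjusted p ran from 0.000148 to 0.74. The call was kept under 11 of the 24. Among others, it was lost with the deposited value table, with quantile normalization, and without BSA replicate 3 or combination replicate 2 or 3. With Rspo2 the change was -0.34 and with Wnt3a -0.38, with adjusted p of 0.104 and 0.0542. Replicate spots differed by a median of 12.6%, and 89 of the 120 spot readings were above background.

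*Btc*, the gene of betacellulin, was detected by 1 of its 2 probes. A_52_P672689 read 0.0855, 0.086 and 0.0839 with BSA, 0.0729, 0.0683 and 0.0845 with Rspo2, 0.0844, 0.0841 and 0.0904 with Wnt3a, and 0.0765, 0.0755 and 0.0696 with the combination. The combination arrays lay below all BSA and all Wnt3a arrays. The log2 changes against BSA were -0.18, 0.02 and -0.21, with adjusted p of 0.157, 0.887 and 0.083. None passed.

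*Ereg* and *Tgfa*, ligands of EGFR that are made by many epithelia, were not detected. The 2 *Ereg* probes gave 1 of 24 readings well above background, on combination replicate 1, and lay between 3.39 and 25.7 intensity units. The 2 *Tgfa* probes gave none of 24 and lay between 3.08 and 18. The *Tgfa* probe A_51_P415126 is printed as 10 spots, of which 2 of 120 spot readings over the 12 arrays were above background.

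**Figure D3:**
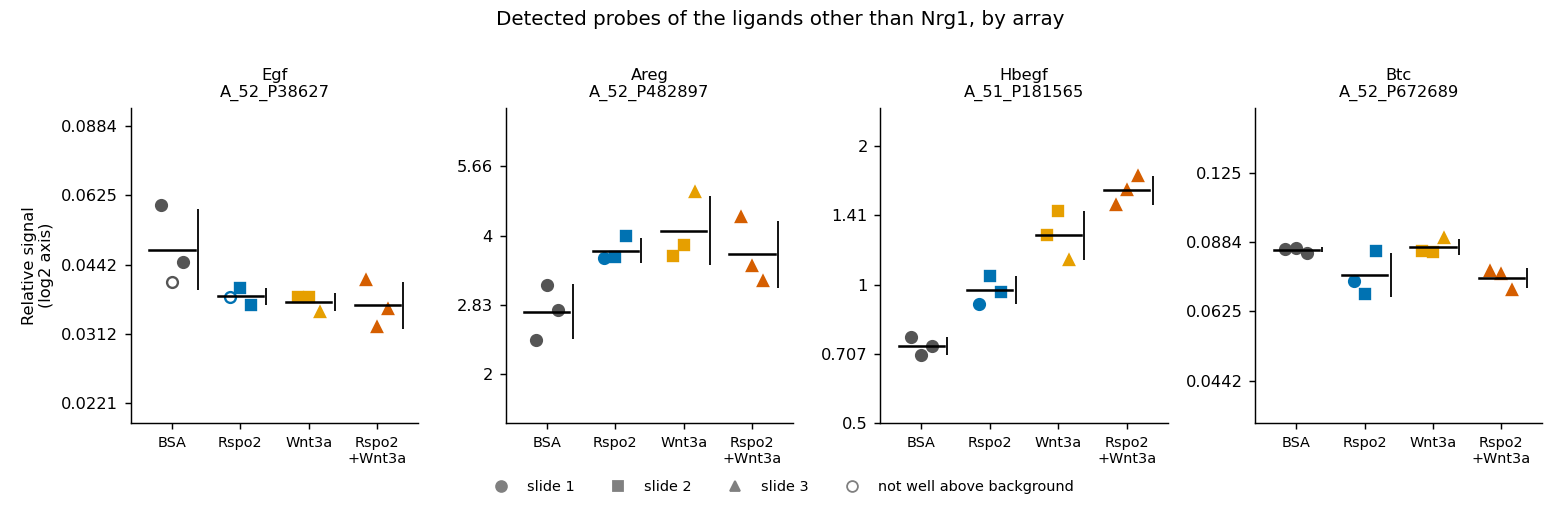
Relative signal of the detected *Egf*, *Areg*, *Hbegf* and *Btc* probes (log2 axis) on each array. Open symbols were not well above background, symbol shapes give the slide, horizontal bars the group mean and vertical bars 1 SD of the log2 values. The *Hbegf* groups do not overlap and run from 0.703 to 0.77 with BSA up to 1.49 to 1.72 with the combination.

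*Nrg1*, which encodes a family of neuregulins through several promoters and splice forms, was detected by all 5 of its probes, and they differed in direction. None of these probes was matched to a RefSeq accession, so the splice form each one reads is not given here. A_52_P328064 read 0.919, 0.815 and 0.714 with BSA, 0.734, 0.808 and 0.776 with Rspo2, 0.63, 0.699 and 0.587 with Wnt3a, and 0.688, 0.681 and 0.626 with the combination. The Wnt3a and the combination arrays lay below all BSA arrays. This probe fell with Wnt3a by 0.35 ± 0.10 on the log2 scale (SE, n = 3; adjusted p = 0.0262) and with the combination by 0.29 ± 0.10 (adjusted p = 0.0466). The fall with Wnt3a was kept under 15 of 25 alternatives, with adjusted p up to 0.434. Among others, it was lost with slide as a term, with normexp, and without BSA replicate 1 or 2 or Wnt3a replicate 1 or 3.

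A_52_P369769 moved the other way. It read 1.72, 1.86 and 1.57 with BSA, 1.93, 1.92 and 2.12 with Rspo2, 1.68, 1.65 and 2.1 with Wnt3a, and 2.36, 2.09 and 1.97 with the combination. It rose in the combination by 0.32 ± 0.11 on the log2 scale (adjusted p = 0.0475), and with slide as a term this change was -0.088. The rise was kept under 8 of 25 alternatives, and the fall of A_52_P328064 in the combination under 6, so both lay at the threshold.

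A_52_P369761 split the Wnt3a group. It read 0.534 and 0.479 on Wnt3a replicates 1 and 2, both on slide 2, and 1.1 on replicate 3, on slide 3. BSA gave 0.82, 0.912 and 0.763, Rspo2 gave 0.986, 0.967 and 0.882, and the combination gave 1.28, 1.09 and 1.01. The combination read above Wnt3a by 0.78 ± 0.25 on the log2 scale, with an adjusted p of 0.127. Without Wnt3a replicate 3 this difference was 1.15 and the change with Wnt3a against BSA was -0.71, and both then passed. Within slide 3 the combination lay above that array by 0.03.

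A_52_P52635 showed the same split, with 0.534 and 0.481 on Wnt3a replicates 1 and 2 and 0.767 on replicate 3. It read 0.676, 0.728 and 0.601 with BSA, 0.728, 0.534 and 0.669 with Rspo2, and 0.884, 0.768 and 0.714 with the combination. A_52_P158772 read 0.5, 0.31 and 0.299 with Wnt3a, so here replicate 1 stood apart. Its other readings were 0.294, 0.287 and 0.304 with BSA, 0.244, 0.29 and 0.281 with Rspo2, and 0.37, 0.355 and 0.398 with the combination. Neither probe passed in any comparison. In the combination 4 of the 5 *Nrg1* probes read above BSA, with log2 changes of the 5 from -0.29 to 0.44. All 5, which read the same gene on the same arrays, were above Wnt3a alone, by 0.06 to 0.78, and none passed there. Of all 22750 detected probes, 12366 were above BSA and 11578 above Wnt3a. Within slide 3 the combination lay above the Wnt3a array by 0.03 (A_52_P369761), 0.02 (A_52_P369769) and 0.03 (A_52_P52635). For A_52_P158772 and A_52_P328064 this difference was 0.32 and 0.18.

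**Figure D4:**
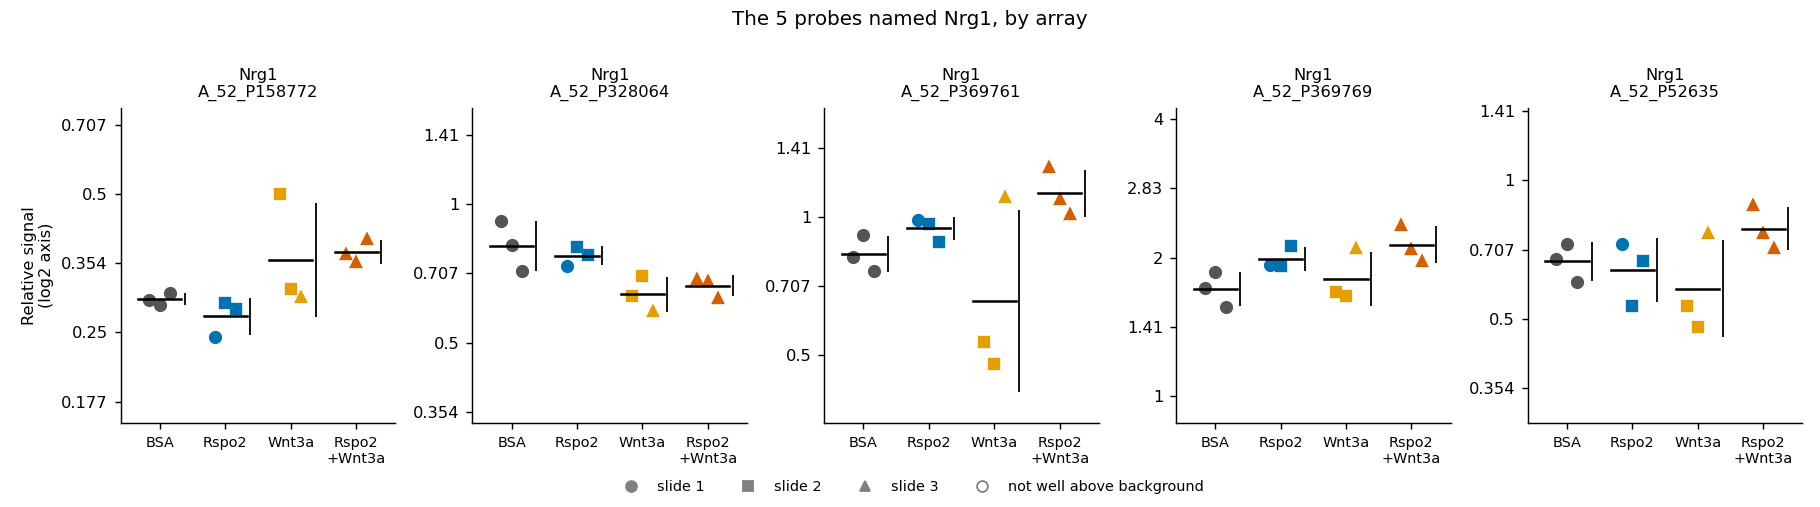
Relative signal of the 5 *Nrg1* probes (log2 axis) on each array, with symbols for the slide, horizontal bars for the group mean and vertical bars for 1 SD of the log2 values. A_52_P328064 reads lower with Wnt3a and the combination, A_52_P369769 higher with the combination, and Wnt3a replicate 3 stands apart in A_52_P369761.

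All 6 detected receptor probes, 4 of *Egfr* and 2 of *Erbb2*, had log2 changes below 0 in the comparisons of each treatment with BSA. Their medians were -0.34, -0.49 and -0.49 for Rspo2, Wnt3a and the combination. Of all 22750 detected probes, 11043, 11384 and 10384 were below 0. The 9 detected ligand probes, of which 5 are of *Nrg1*, had medians of -0.06, 0.02 and 0.32. The last is the change of the *Nrg1* probe A_52_P369769, which was -0.088 with slide as a term. The 3 comparisons share the BSA arrays and are not independent of one another. Neither are the probes of the same gene, which were read on the same arrays. The plot of changes against BSA gives each value with its interval.

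**Figure D5:**
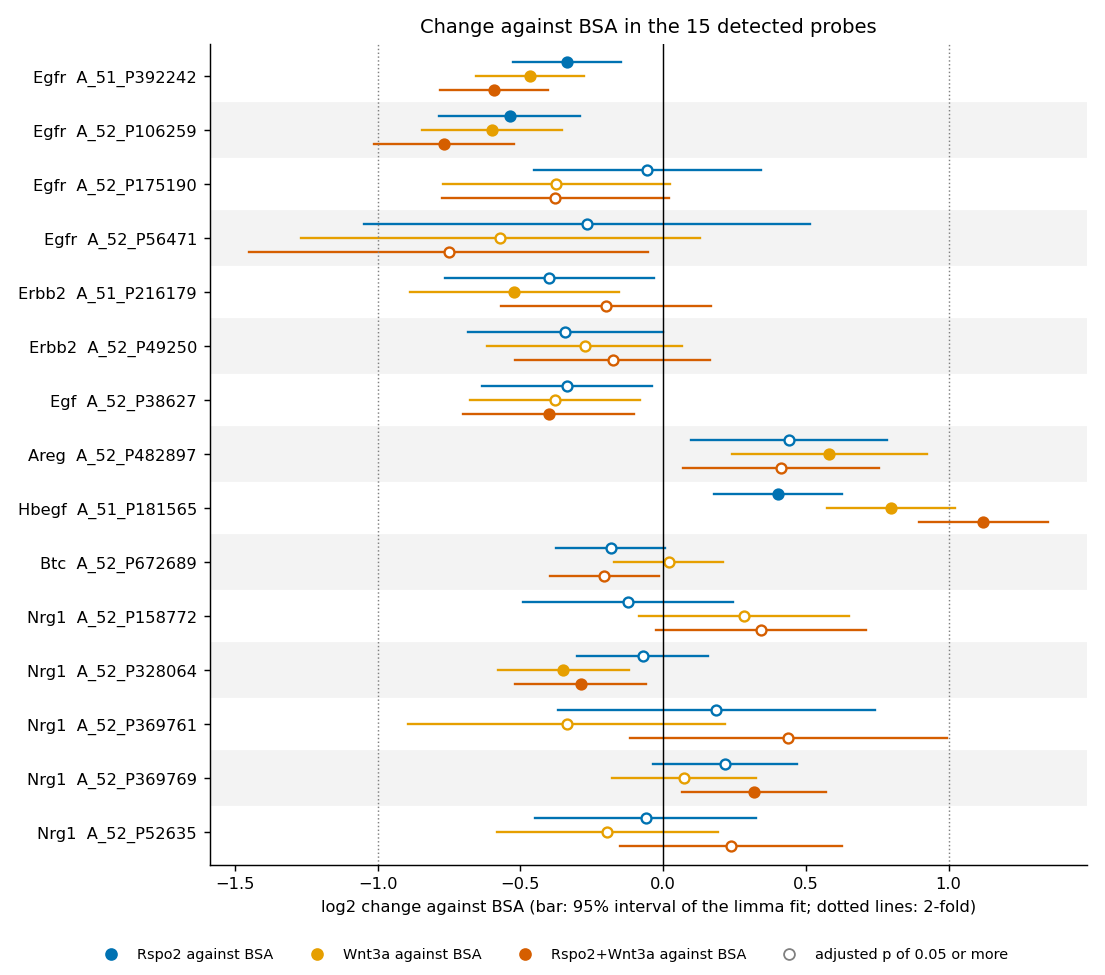
Log2 change against BSA of the 15 detected probes for Rspo2, Wnt3a and the combination, with 95% intervals from the limma fit. Filled points had an adjusted p under 0.05, and dotted lines mark 2-fold. Only *Hbegf* in the combination lies beyond 2-fold with a filled point, at 1.12.

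Other genes of the pathway were counted in 5 lists, each gene by its brightest probe. *Dusp4* was named because it reached 2-fold with an adjusted p under 0.05, and the other genes named here were chosen after their values were seen. Of the remaining family members, *Erbb4*, the fourth receptor, was above background on all 12 arrays and did not pass (log2 changes of -0.18, -0.13 and -0.01 with Rspo2, Wnt3a and the combination). *Nrg3*, *Nrg4* and *Epgn* were not detected, and *Nrg2* was not found by its symbol.

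Of 5 detected genes for the release and trafficking of ligands, 1 passed with Rspo2, 3 with Wnt3a and 1 with the combination, where 16.8%, 31.5% and 39.2% of all probes did. *Adam17*, the main protease that releases *Hbegf* and *Areg* products, fell with each, by 0.35, 0.38 and 0.33 on the log2 scale (adjusted p = 0.0362, 0.014 and 0.0221). These calls were kept under 11, 19 and 16 of 25 alternatives, and all were lost with slide as a term and with normexp. *Adam10*, a related protease, fell with Wnt3a by 0.51 (adjusted p = 0.0118), and *Tmed2*, a cargo carrier of the early secretory pathway, rose by 0.28 (adjusted p = 0.0252), though with quantile normalization this change was -0.036. The call for *Adam10* was kept under 21 of 25 alternatives and that for *Tmed2* under 15.

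Of 8 detected genes that restrain ErbB receptors, 1 passed with Rspo2, 3 with Wnt3a and 4 with the combination, near the shares of all probes (16.8%, 31.5% and 39.2%). *Lrig1*, a membrane protein that promotes the breakdown of ErbB receptors, had the lowest log2 changes of this list in each comparison with BSA. It read 14.9, 12.8 and 12.7 with BSA, 7.91, 8.1 and 6.39 with Rspo2, 7.34, 6.83 and 7.06 with Wnt3a, and 6.51, 7.61 and 8.42 with the combination. All treated arrays lay below BSA, and the treated groups overlapped. *Lrig1* fell by 0.85, 0.92 and 0.84 ± 0.12 on the log2 scale (SE, n = 3; adjusted p = 0.00514, 0.000731 and 0.000427). Its interaction was 0.93 (adjusted p = 0.0125), so the combination lay well short of the sum of the single falls. With slide as a term none of these passed, with log2 changes of -0.76, -0.79 and -0.70. *Rnf41*, a ubiquitin ligase for ERBB3, rose with Wnt3a and the combination by 0.25 and 0.52 (adjusted p = 0.0273 and 0.000386). *Ptpn12*, a phosphatase, rose in the combination by 0.34, and *Lrig2* fell by 0.51 (adjusted p = 0.00498 and 0.00756). The rise of *Rnf41* with Wnt3a was kept under 15 of 25 alternatives, and the calls for *Rnf41*, *Ptpn12* and *Lrig2* in the combination under 24, 23 and 22.

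All 18 genes for adaptors and cytoplasmic signaling were detected, and 1 passed with Rspo2, 3 with Wnt3a and 3 with the combination, below the shares of all probes (16.8%, 31.5% and 39.2%). Their median log2 changes were -0.05, 0.05 and -0.05. *Pik3r1*, the regulatory subunit of phosphoinositide 3-kinase, fell with Wnt3a and the combination by 0.63 and 0.40 (adjusted p = 0.00104 and 0.00549). *Nras*, a RAS GTPase, rose by 0.45 and 0.51 (adjusted p = 0.00243 and 0.000616). *Braf*, a kinase that acts below RAS, fell with Rspo2 by 0.34 (adjusted p = 0.0474), a call kept under 7 of 25 alternatives and lost without any 1 of the BSA or Rspo2 arrays. The calls for *Pik3r1* and *Nras* were kept under 22 or 23 of 25, and were lost with slide as a term and with normexp.

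Of 12 detected genes that respond to growth factor signaling, 1 rose with Rspo2, 3 with Wnt3a and 2 with the combination, and none fell against BSA. Over all probes 10.9%, 18.3% and 21.9% rose and 5.93%, 13.2% and 17.3% fell. *Dusp4*, a phosphatase induced by growth factor signaling, read 0.276, 0.231 and 0.255 with BSA, 0.307, 0.306 and 0.314 with Rspo2, 0.364, 0.419 and 0.461 with Wnt3a, and 0.681, 0.696 and 0.757 with the combination. Its groups did not overlap and stood in the same order as those of *Hbegf*. It rose by 0.70 ± 0.10 with Wnt3a and by 1.49 ± 0.10 in the combination (SE, n = 3; adjusted p = 0.00108 and 2.4e-06), and from Wnt3a to the combination by 0.78 (adjusted p = 0.00118). With normexp the change in the combination was 1.11 (adjusted p = 0.0661, the highest of 25 alternatives, of which 24 kept the rise). The rises with Wnt3a and from Wnt3a to the combination were each kept under 22. Both were lost with normexp, with slide as a term and with the methods' t-test after adjustment.

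*Egr1*, an early gene of growth factor response, followed another pattern. It read 1.58, 1.46 and 1.33 with BSA, 1.94, 1.88 and 1.69 with Rspo2, 1.95, 2.17 and 1.97 with Wnt3a, and 1.33, 1.31 and 1.3 with the combination. *Egr1* rose by 0.34 with Rspo2 and by 0.48 with Wnt3a (adjusted p = 0.0292 and 0.00289), and was lower in the combination than with Wnt3a by -0.63 (adjusted p = 0.00198). Its interaction was -0.97 ± 0.12 (adjusted p = 0.00195), and with slide as a term it still passed (adjusted p = 0.0452). It was kept under 24 of 25 alternatives and lost with normexp, while the rise with Rspo2 was kept under 11 and lost without any 1 of the BSA or Rspo2 arrays. The *Egr1* rise with Wnt3a and its fall from Wnt3a to the combination were each kept under 22. Normexp, slide as a term and the methods' t-test after adjustment lost both. *Spry2* rose with Wnt3a by 0.62 (adjusted p = 0.025) and *Myc* in the combination by 0.25 (adjusted p = 0.0189). The former was kept under 13 of 25 alternatives, being lost without Wnt3a replicate 1 or 2 or BSA replicate 2 or 3, and the latter under 17, being lost without BSA replicate 1 or combination replicate 1.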

How the data were processed

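RNA of 12 C57MG cultures was hybridized in a single color to Agilent whole mouse genome arrays. The authors scanned each array with Agilent Feature Extraction 9.5.3.1, which gave the deposited intensity of each spot after subtraction of background and detrending, with flags for outliers and for signal well above background. A deposited table holds the ratio of each signal to the 75th percentile of its array, on a linear scale, and served as an alternative.

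Of 520548 spot values, 1327 marked as outliers were left out. Repeated spots of a probe were averaged, and the log2 of its array's 75th percentile was subtracted from the log2 mean. A probe was detected when well above background (for repeated spots, on at least 0.5 of them) on all 3 arrays of at least 1 group, with values on at least 2 arrays in each group. Linear models were fitted in R 4.3.3 with limma 3.58.1 to 22750 detected probes on all 12 arrays, with Benjamini-Hochberg adjustment and a threshold of 0.05. Changes of at least 2-fold were counted as well. The 5 comparisons were each treatment with BSA, the combination with Wnt3a, and the interaction. The scripts were tested on simulated data. With 3 arrays a group, an exact permutation test cannot go below p = 0.1, and the number of arrays limits the precision.

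All 27 member probes are reported. Of these, 18 carried a RefSeq accession, and all 18 led to the same symbol. Other pathway genes were named if they changed at least 2-fold, or else as stated. The members and lists were chosen with earlier results of these data known. Slide was taken from the array files. Replicate numbers were not used to pair the samples, since the labels state no pairing. Samples with the same number had deviations that correlated with a median of 0.01 (from -0.41 to 0.27, 18 pairs). For other pairs the median was -0.004 (from -0.40 to 0.43, 36 pairs). Pairs so few and so variable cannot exclude a pairing. Promoter stretches came from RefSeq (GRCm38.p6). Figures were drawn with matplotlib 3.10.9. The alternatives are given in the closing section.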

Additional observations from a re-analysis of the deposited data

How the results depend on the processing

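Each member probe was recomputed under 13 other settings of processing or testing and with each of the 12 arrays left out. Of 965 values under other settings, 865 kept their side of the threshold without reversing a call (52 of them, not called, changed sign), 77 lost and 21 gained the threshold, and 2 called changes reversed. The reversals were *Egfr* (A_51_P392242) with Rspo2, at 0.26 on the log2 scale with normexp, and *Nrg1* (A_52_P369769) in the combination, at -0.088 with slide as a term. Of the other pathway genes, *Tmed2* with Wnt3a reversed to -0.036 with quantile normalization. The cause was not tested.

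The number of members that passed against BSA was 3 with Rspo2, 6 with Wnt3a and 6 in the combination. In this order it became 0, 1 and 1 with normexp, 0, 0 and 1 with slide as a term, 0, 3 and 3 with no filter on dim probes, and 0, 0 and 3 with the methods' t-test after adjustment. In the combination it was 3 with quantile normalization, beside 8305 of all 22750 probes, and 3 with the looser detection flag, beside 8607 of 28052. The looser flag also gave 1 member changed at least 2-fold with Wnt3a, beside 1049 of all 28052 probes. With no fold requirement the changed members were 3, 6 and 6. The interaction passed in 1 member with outlier spots kept, beside 2034 of all probes. By the methods' t-test before adjustment it passed in 2, beside 5292, and the combination against Wnt3a in 1, beside 2456. Replicate numbers were not used as pairs in the main fit, and with the replicate block the count with Rspo2 was 0.

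With 1 array left out, the members that passed ranged from 0 to 4 with Rspo2, 4 to 7 with Wnt3a, 3 to 8 in the combination, 0 to 2 for the combination against Wnt3a and 0 to 1 for the interaction. Those changed at least 2-fold ranged from 0 to 0, 0 to 0, 1 to 1, 0 to 1 and 0 to 0. Among all probes, of which 22744 to 23072 were tested, the calls varied as well. In the same order 468 to 4185, 4954 to 7248, 6681 to 9550, 483 to 2139 and 674 to 2897 of them passed. The probes changed at least 2-fold were 92 to 242, 489 to 733, 1081 to 1273, 146 to 340 and 279 to 744. Taking the 75th percentile over probes above background on all arrays moved the median of all probes with Wnt3a to -0.12, and normexp moved that with Rspo2 to 0.15. Over all probes, calls against BSA also fell, from 3824, 7161 and 8916 to 4, 109 and 1051 with normexp, 98, 181 and 572 with slide as a term, 166, 4588 and 6818 with no filter, and 2, 1545 and 3342 with the methods' t-test after adjustment. With the replicate block 809 passed with Rspo2.

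*Egf* was read near background, and *Erbb3*, *Ereg* and *Tgfa* lay below what these arrays can measure. Slide cannot be fully separated from treatment, since BSA lay on 1 slide. The limma p-values and SEs rest on an estimate of the spread that the 4 groups share for each probe and that limma draws toward all probes. They reflect 3 cultures a group in a single experiment.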
